A study of Equus caballus with 4 samples.

Results

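The globins are small haem proteins that bind oxygen. HBA2 encodes an alpha chain and HBB the beta chain of haemoglobin, the oxygen carrier of red blood cells, and MB encodes myoglobin, which stores oxygen in skeletal muscle and heart. The array carried 1 probe for each of these 3 horse genes, 3 of 43603 probes that are not controls, and they were found as those whose RefSeq accession belongs to HBA2, HBB or MB in the horse RefSeq gene table. The accession of HBA, the alpha-globin gene that lies near HBA2 in that table, had 0 probes. Alpha-globin copies are nearly identical in sequence, so the HBA2 probe may also take up HBA transcripts.

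RNA was taken from equine sarcoids, which are fibroblastic tumours of horse skin, and from skin of the same horse away from the tumour. Both RNAs of a horse were put on 1 Agilent two-colour array, the sarcoid in Cy3 and the skin in Cy5, for 4 horses in all. The labels give no breed or age, and no treatment beyond storage of the tissue. In 3 of the 4 samples the description also mentions embryonic stem cells, against the tissue and source fields, which were followed. Every array had the dyes the same way round, so a dye effect of a probe is part of its ratio. Keratinocyte and gland genes were lower in all 4 tested (KRT15 at -5.13 ± 0.10 log2, SD, n = 4, and SPINK9, S100A7 and SPINK7 also). Over all tested targets 9.61% were called lower, and 12.1% of those with a symbol. In the sarcoids 5 of 7 tested fibroblast genes were higher (among them LUM, BGN with values on 2 arrays, TBX15 and COL5A2). Called higher were 5.44% of all tested targets and 6.95% of those with a symbol. The gene lists were chosen with earlier results of these data known, so these counts are no independent check of the tissue labels.

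Haemoglobin is made in the red cell lineage, whose precursors hold large amounts of globin mRNA. Circulating red cells have lost their nucleus, and the youngest of them, the reticulocytes, still carry globin mRNA. Horses are known for releasing few reticulocytes into the blood. Haemoglobin transcripts have also been described outside the red cell lineage, in epidermal keratinocytes among other cells. In a bulk sample, fewer cells of a type and less RNA per cell cannot be told apart.

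All 3 globin probes gave lower values in the sarcoid than in the skin of the same horse, on every array. HBA2 was 2.53-fold higher in the skin (log2 ratio of sarcoid over skin -1.34 ± 0.33, SD, n = 4). MB was 2.31-fold higher in the skin under this processing, with sarcoid values raised to the dimmest well-measured signal of the array where that was higher. No array had its MB sarcoid spot well above background, so 2.31-fold is not a lower limit and the size is not settled. The fitted log2 ratio of HBB was -0.77 ± 0.39, with a sarcoid spot well above background on only 1 of 4 arrays, so its size is not settled. All 3 passed limma at a Benjamini-Hochberg adjusted p under 0.05, a call that 9.61% of the 19429 tested targets received in that direction and 12.1% of the 835 targets with a gene symbol. HBB and MB entered the test only through their skin spots, the side where they are high, so their calls are not on a par with that of HBA2. With no filter the limma adjusted p was 0.0109 for HBA2, 0.0572 for HBB and 0.0321 for MB. A ratio below 0 on all 4 arrays was found for 20.5% of targets. With each of 33296 kept probes as a row of its own, 10.8% of them were called lower, and the limma adjusted p was 0.00596 for HBA2, 0.0410 for HBB and 0.0178 for MB.

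HBA2 was measured well above background in both tissues. Its median spot signal in the sarcoid channel was 158 in horse 1, 179 in horse 2, 158.5 in horse 3 and 105 in horse 4, in scanner units. In the skin channel it was 316.5, 607.5, 633 and 461 in the same order. All 8 values were well above background by the scanner software's flag, and none of the 153 negative control spots of the same array and channel (probes designed to bind no transcript) reached them. Horse 4 had the lowest sarcoid signal and horse 1 the lowest skin signal. Raw signals of the dyes are not on 1 scale, so the tissues were compared after normalisation. On the normalised log2 scale the sarcoid levels were 7.15, 7.71, 7.21 and 7.33 for horses 1 to 4, and the skin levels were 8.46, 8.89, 9.02 and 8.38. The groups did not overlap, as was the case for 11.8% of all targets. The log2 ratios of HBA2 were -1.31, -1.18, -1.80 and -1.05 for horses 1 to 4 (limma SE 0.16, adjusted p = 0.00680). Horse 3 had the largest difference, a 3.49-fold higher level in the skin, and horse 4 the smallest, 2.07-fold. With the horses left out in turn the limma adjusted p of HBA2 ranged from 0.0184 to 0.0367, so the call did not rest on 1 animal.

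HBB lay near the limit of detection in the sarcoids. Its median spot signal in the sarcoid channel was 91, 79, 78 and 78 for horses 1 to 4, where the negative control spots had medians of 66, 65, 71 and 65. Between 1 and 8 of the 153 negative control spots of an array were as bright or brighter. Only the value of horse 1 was well above background. In the skin channel HBB stood at 169, 106.5, 94 and 264, well above background on all 4 arrays, with 0 of 153 negative control spots as bright. Horses 1 and 4 had the brighter skin spots and horses 2 and 3 the dimmer ones.

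After normalisation the HBB sarcoid levels were 6.31, 6.23, 6.06 and 6.74 on the log2 scale, and the skin levels were 7.54, 6.66, 6.53 and 7.70. The groups overlapped, since the sarcoid of horse 4 lay above the skin of horses 2 and 3, while each horse's own sarcoid lay below its own skin. The log2 ratios of HBB were -1.23, -0.43, -0.47 and -0.96 (limma SE 0.18, adjusted p = 0.0449). The call was lost with any 1 horse left out: leaving out horses 1, 2, 3 and 4 gave a limma adjusted p of 0.136, 0.0799, 0.0764 and 0.124. It was also lost in a model of the separate channels that ignores the pairing by horse (limma adjusted p = 0.144 with no replicate block, 0.0449 with horse as replicate block).

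MB was seen in skin and not above background in sarcoid. Its median spot signal in the sarcoid channel was 81.5, 76, 80 and 79.5 for horses 1 to 4, with 2 to 5 of the 153 negative control spots of each array as bright or brighter. In the skin channel it was 167, 302, 177 and 175, with 0 of 153 negative control spots as bright. Horse 2 had the brightest skin spot and the other skin spots lay close together. The normalised log2 skin levels were 7.52, 8.0, 7.29 and 7.21, all above the sarcoid values of 6.14, 6.23, 6.13 and 6.64. Such a separation was found for 11.8% of all targets, and for MB its sarcoid side was at background. The measured means were 7.51 in skin and 6.29 in sarcoid. For the 2.31-fold figure, each sarcoid value was replaced by the dimmest well-measured signal of its array where that was higher. This happened on 1 array, and the sarcoid mean became 6.30. On the other arrays the value not well above background was used as measured, so the figure depends on the processing. The adjusted p of MB in limma was 0.0202. Leaving out horses 1, 2 and 3 raised it to 0.0856, 0.0617 and 0.0664, while leaving out horse 4 gave 0.0193.

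**Figure D1:**
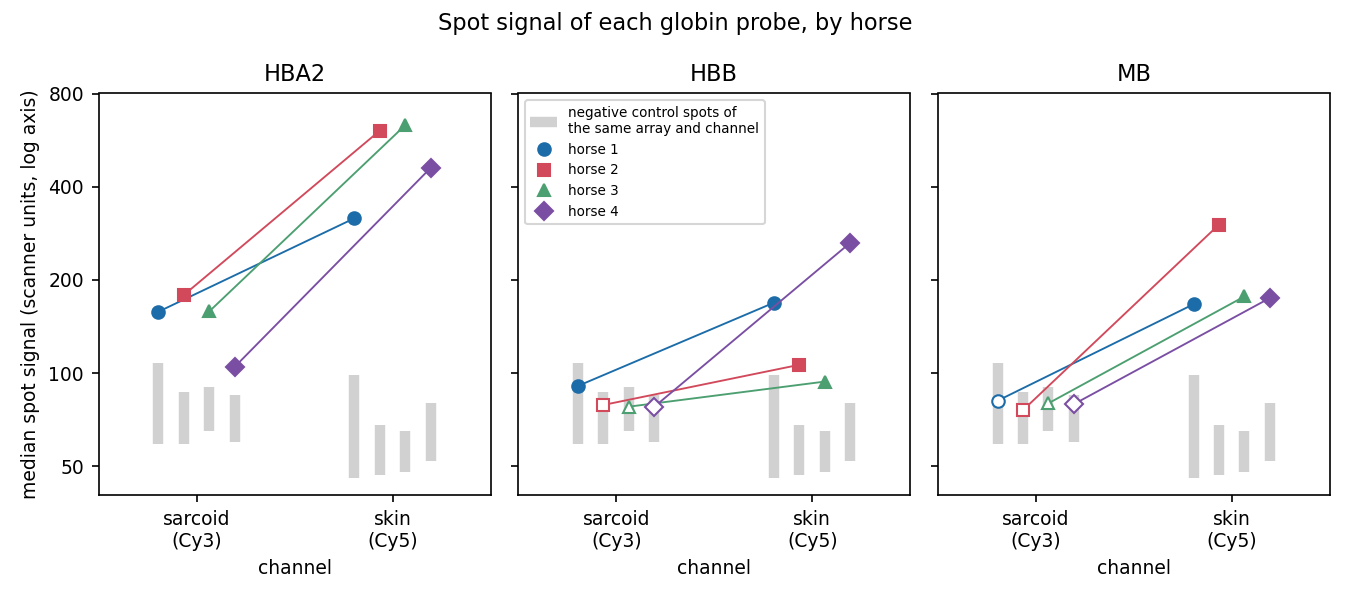
Median spot signal in scanner units (log axis) of the HBA2, HBB and MB probes in the sarcoid (Cy3) and skin (Cy5) channels, 1 line per horse; open symbols were not well above background, and grey bars span the 153 negative control spots of the same array and channel. HBA2 lies above the bars in both channels, by only a little in the sarcoid of horse 4 (105 against a highest control of 85). The HBB and MB sarcoid spots (76 to 91) lie inside the bars. Their skin spots lie above the bars, those of HBB in horses 2 and 3 (106.5 and 94) by only a little.

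The negative control spots also showed what a spot without transcript gives under the same processing. After subtraction of the local background they kept a median of 41.5 to 48 scanner units in the sarcoid channel and 8 to 13.5 in the skin channel. The sarcoid spots of HBB and MB, at 52 to 70 units after the same subtraction, stood little above that level. After normalisation the median log2 ratio of the negative control spots lay between -0.08 and -0.04 on the 4 arrays, with single spots from -0.33 to 0.25. Of the 132 to 143 negative control spots of an array that were not outliers, 0 had a ratio as low as HBA2, HBB or MB.

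The size of the ratios depended on how that remaining signal was handled. Agilent's processed signals, which the scanner software subtracts for background and normalises between dyes, gave log2 ratios of -1.77, -1.39, -2.14 and -1.60 for HBA2 in horses 1 to 4. The software's own error on these was 0.24 to 0.28. For HBB the same signals gave -2.72, -1.66, -2.26 and -2.88, with errors of 0.34 to 0.52. The means were -1.73 ± 0.31 for HBA2 and -2.38 ± 0.55 for HBB (SD, n = 4; limma adjusted p = 0.00414 and 0.00269). The fitted ratio of MB moved from -1.22 ± 0.50 to -3.31 ± 1.20, neither of which is a size, since the sarcoid side was at background. With the constant added after background correction lowered from 50 to 10, the mean ratios were -1.64 for HBA2, -1.32 for HBB and -1.99 for MB. With the background taken from the negative control spots and the constant at 10 they were -1.72, -1.55 and -2.27. HBA2 thus moved by less than 1.5 times under these settings, and HBB and MB by more.

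A further choice ended all 3 calls. When the background model was fitted to all spots, including those the scanner software marked as outliers, the log2 ratios were -0.73 for HBA2, -0.56 for HBB and -0.56 for MB (limma adjusted p = 0.239, 0.35 and 0.33). The drop came from the arrays of horses 2 and 3, where HBA2 went to -0.38 and -0.18, HBB to -0.04 and -0.01, and MB to -0.27 and -0.04. On those arrays the fitted background had an SD of 177 to 1536 scanner units, against 0.71 to 1.56 without the outlier spots. None of the globin spots was marked as an outlier. In horses 1 and 4 the HBA2 ratio was -1.31 and -1.05 either way. Over all targets that setting called 98 lower and 42 higher, against 1868 and 1056 here.

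**Figure D2:**
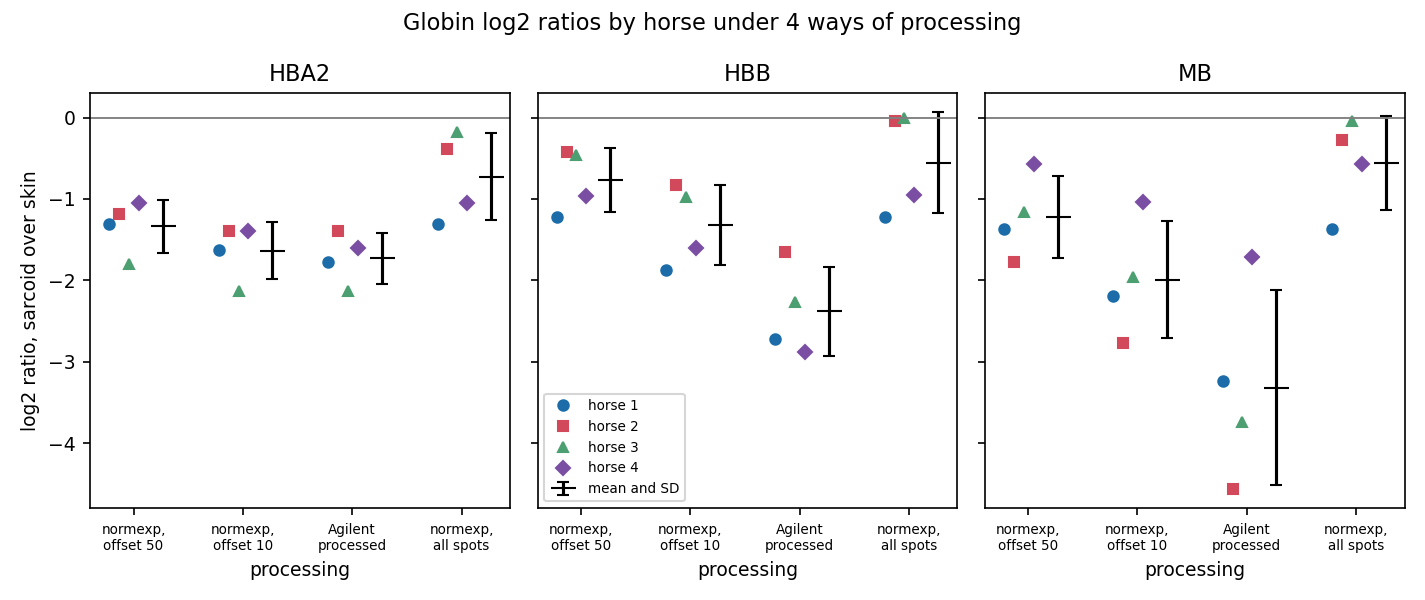
Log2 ratio of sarcoid over skin for each globin probe in each horse (symbols), with mean and SD (n = 4), under normexp background correction with an offset of 50 or 10, under Agilent's processed signals, and with normexp fitted to all spots. HBA2 stays between -2.14 and -1.05 in the first 3 settings, HBB and MB spread more widely, and with all spots horses 2 and 3 move toward 0.

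The haemoglobin chains were compared with each other by their ratios within a horse. HBA2 minus HBB was -0.09, -0.75, -1.34 and -0.09 on the log2 scale for horses 1 to 4 (mean -0.57 ± 0.60, SD, n = 4). Since the HBB sarcoid spots of horses 2, 3 and 4 were not above background, no order of the chains can be read from these differences. An exact two-sided sign-flip permutation test gave p = 0.125, the smallest that 4 horses allow, and 0.375 adjusted over the 3 pairs of globins. With Agilent's processed signals the sign turned, to 0.65, and the ratio of HBB was the lower one in all 4 horses. The pairs with MB are not given, since MB was at background in every sarcoid.

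In skin the horses ranked in opposite order for the chains on the normalised scale, and only in part on the raw and processed scales. The normalised HBA2 level was highest in horse 3, then horses 2, 1 and 4, and the HBB level was highest in horse 4, then horses 1, 2 and 3. The raw spot signals gave horses 3, 2, 4 and 1 for HBA2 and horses 4, 1, 2 and 3 for HBB. Agilent's processed signals gave 3, 2, 1 and 4 against 1, 4, 2 and 3. Horses 2 and 3, with the higher HBA2 skin levels, had the lower HBB skin levels on each of these scales. With 4 horses this is a description and was not tested.

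**Figure D3:**
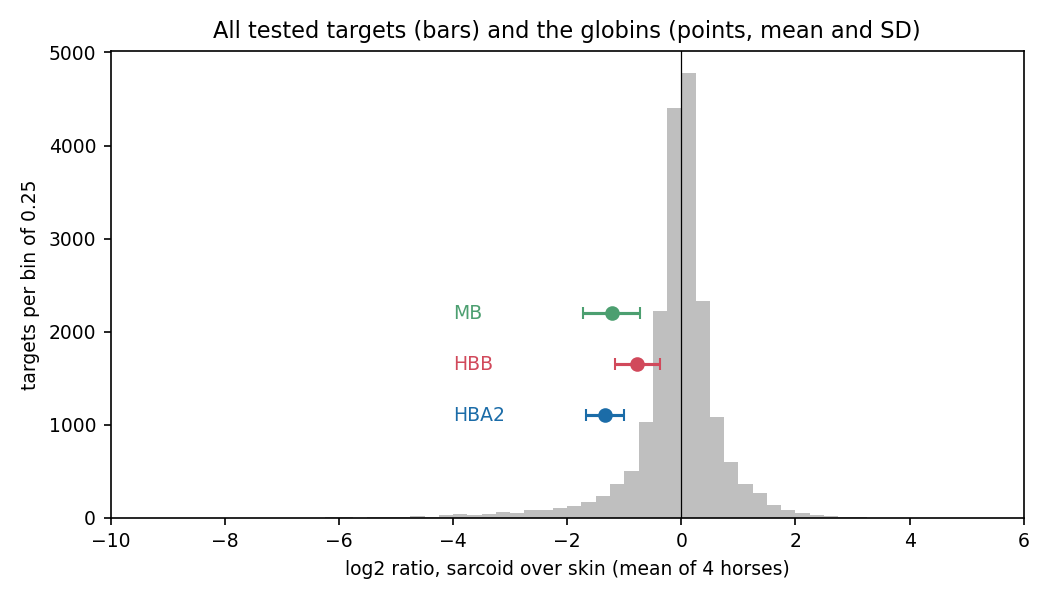
Number of the 19429 tested targets by mean log2 ratio of sarcoid over skin (bars, bins of 0.25), with the mean and SD over 4 horses of HBA2 (-1.34 ± 0.33), HBB (-0.77 ± 0.39) and MB (fitted value -1.22 ± 0.50, at background in the sarcoids) drawn above them. The 3 globins lie in the left flank of a distribution whose median is 0.00.

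Genes that go with the globins by cell type or function were sparsely represented. Of 25 erythrocyte genes listed, 4 had a named probe and 2 were tested, HBA2 and HBB themselves. The anion exchanger SLC4A1, a main red cell membrane protein, was well above background on 1 skin array and 0 sarcoid arrays. HBZ, an embryonic alpha-like globin, did not rise above background on an array in either channel. No other member of the list could show whether red cell transcripts were lower as a group.

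Among 24 genes of haem and iron handling 6 were tested, of which 1 was higher, 1 lower and 4 did not pass, with a median log2 ratio of -0.22, against 0.00 over all targets. Over all targets 5.44% were called higher and 9.61% lower (6.95% and 12.1% of those with a symbol), and 1 call each way among 6 genes does not set the list apart. FTL, the light chain of the iron store ferritin, rose by 1.21 ± 0.56 on the log2 scale (SD, n = 3, since the spot of horse 1 was an outlier; limma adjusted p = 0.0478). LTF (lactoferrin, an iron-binding protein of secretions and neutrophils) was lower, at -2.38 ± 0.79 (SD, n = 4; limma adjusted p = 0.00883). The call of FTL was lost with horse 2, 3 or 4 left out, and that of LTF was kept with each horse left out in turn. Leaving out horse 1 took away no FTL value, and the limma adjusted p of FTL was then 0.0730. The other ferritin chain, FTH1, was at 0.33 ± 0.50, and the iron carrier TF (transferrin) at -1.16 ± 1.27, neither passing the test.

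Muscle genes were the reference for MB. Of 30 skeletal muscle genes 9 had a named probe and 5 were tested. MB was lower and the other 4 did not pass. Over all targets 9.61% were called lower, and 12.1% of those with a symbol, so 4 genes without a call do not set MB apart from them. MYH7, the slow myosin heavy chain, was at -0.53 ± 0.57 (SD, n = 4), with ratios of -0.79, 0.18, -0.38 and -1.14 in horses 1 to 4. ACTN3, an actinin of fast fibres, was at 0.08 ± 0.25, PYGM (muscle glycogen phosphorylase) at 0.07 ± 0.12 (n = 3) and MSTN (myostatin) at -0.07 ± 0.23. These 4 are named beyond the rule for named genes. MYH2 and MYH4, myosins of fast fibres, did not rise well above background in either channel, MYH1 did so on at most 2 arrays of a channel, and CA3, a carbonic anhydrase of muscle, on 2 skin arrays. The summed normalised signal of the tested list, MB included, was 609 to 903 units in the sarcoids and 818 to 1057 in the skin, and its part in the MB result was not tested.

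Vessel and blood cell genes did not pass limma in either direction, and 0 of them had an unadjusted p under 0.05. Over all targets 5.44% were called higher and 9.61% lower, so the lack of a call among so few genes does not set them apart. Of 16 endothelial genes 4 were tested, with a median log2 ratio of -0.14. The adhesion molecules SELE and PECAM1 were at -0.24 ± 0.29 (SD, n = 4) and -0.22 ± 1.42 (n = 3). PECAM1 turned sign under 3 of 13 alternative settings, and was at 0.27 with the mean over its probes. The endothelial ratios varied between horses: VWF (von Willebrand factor) was at 0.04, 1.58, -1.95 and 0.09 in horses 1 to 4. The summed signal of the endothelial list ranged from 1907 to 13616 units in the sarcoids and from 3003 to 7421 in the skin, and whether it bears on the globin ratios was not tested. Of 15 platelet and neutrophil genes the 2 tested, ITGA2B (a platelet integrin) at 0.38 ± 0.42 and MMP9 at -0.08 ± 0.52, did not pass. The only tested smooth muscle gene, TAGLN, was at -0.11 ± 0.82.

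Lists of hypoxia and mitochondrial genes had 7 and 3 tested members, and their counts stand beside 9.61% of all targets and 12.1% of named targets called lower, with no test of the lists. Of the hypoxia genes SLC2A1 (glucose transporter 1) was lower, at -1.01 ± 0.22 (SD, n = 3), and the other 6 did not pass. Of the genes of mitochondrial respiration SDHB, a subunit of succinate dehydrogenase, was at -0.83 ± 0.36 and ATP5F1B, a subunit of ATP synthase, at -0.73 ± 0.15 (n = 3), both lower, and the other did not pass. The call of SDHB was lost with each horse left out in turn. SLC2A1 had no value in horse 4 and ATP5F1B none in horse 3, so leaving out that horse took away no value of the gene. SLC2A1 then passed (limma adjusted p = 0.0288) and ATP5F1B did not (0.0511). With any other horse left out, the calls of SLC2A1 and ATP5F1B were lost. Of 13 alternative settings SLC2A1 passed in 10, SDHB in 9 and ATP5F1B in 5, and with the mean over its probes SLC2A1 was at -0.48 (limma adjusted p = 0.116). Median log2 ratios were -0.26 for the hypoxia list and -0.73 for the respiration list.

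**Figure D4:**
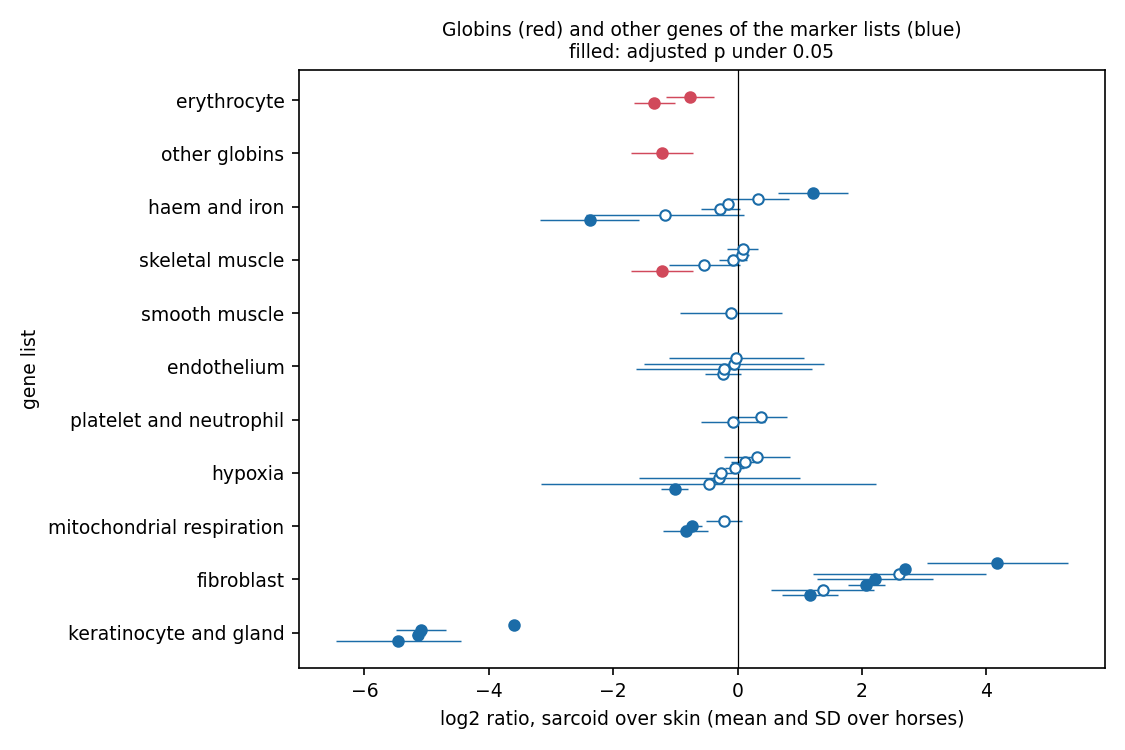
Mean log2 ratio of sarcoid over skin with its SD over horses for every tested gene of the marker lists, 1 row per list; red points are the globins, blue points the other genes, and filled points passed limma at an adjusted p under 0.05. The globins lie between -1.34 and -0.77, the keratinocyte and gland genes at -3.60 or lower and the fibroblast genes at 1.16 or higher. Endothelial, platelet, neutrophil and smooth muscle genes lie between -0.24 (SELE) and 0.38 (ITGA2B), with SDs from 0.29 (SELE) to 1.45 (VWF).

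The genes with a symbol whose 4 ratios lay nearest to those of a globin were found by the root mean square difference over the 4 horses, among 724 genes measured on every array. For HBA2 they were DHRS11 (0.25), LOC100067649 (0.26) and FOSL2 (0.29), all 3 lower in the sarcoids. For HBB they were C5H1orf105 (0.19), ZNF648 (0.27) and PSMD4 (0.29), of which only C5H1orf105 passed the test, and no sarcoid array had its spot well above background. For MB they were HSD17B4 (0.25), DUSP2 (0.30) and GSN (0.36), all 3 lower. The direction of all these neighbours follows from their choice by likeness to a globin ratio, and is not a separate result. None of the globins was among the nearest genes of another; their root mean square differences were 0.50 between HBA2 and MB, 0.77 between HBA2 and HBB, and 0.78 between HBB and MB. The ratios of HBB and MB used here have sarcoid spots at or near background.

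Over the whole series, a channel of an array had 67.2% to 80.7% of its spots above background by the software's stricter flag, and 0 spots were saturated. The share of called targets that were higher was 36.1%, against 47.9% with Agilent's processed signals and 17.6% with median centring in place of loess. Median centring also moved the median of all targets to -0.11, and HBA2 was then at -1.52, HBB at -0.76 and MB at -1.25. The globin ratios were below 0 under each of the 15 alternative settings, several of which could not change them, and with each horse left out. With 4 arrays, precision is limited by their number.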

How the data were processed

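Each of 4 arrays carried amplified RNA (100 ng input, per the labels) of a sarcoid in Cy3 and of the same horse's skin in Cy5. Per the submitters' processing notes, Agilent Feature Extraction 11.5.1.1 produced the deposited scanner files, which hold the spot and background intensity of each channel, processed intensity values and flags, per the file headers. The authors' value table holds the log10 ratio of Cy5 over Cy3, equal to that of the scanner files (largest difference 0), with medians of 0, -0.00257, -0.0117 and 0; this match gave its scale and its direction. Values printed here are log2, sarcoid over skin, computed from the deposited intensity values.

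Median spot signals were used, as the files used here give no mean. Outlier spots were left out first, normexp with an offset of 50 then corrected the background, and loess with controls at weight 0 normalised each array (limma 3.58.1, R 4.3.3). A probe was kept when 3 or more arrays had it well above background in 1 channel, a target was represented by its brightest probe, and targets with values on fewer than 2 arrays were left out (179). Of 3437 probes with RefSeq accessions 2332 matched a gene of assembly TB-T2T; coordinates are left out because the array was designed on another build. Normalised levels per channel follow Aquantile scaling. The two-sided test of each mean ratio against 0 used limma's lmFit and eBayes, adjusted by Benjamini-Hochberg over all targets; the horse pairing is inside the ratio. In simulated data for this comparison with the spread of 19429 targets, 34.0% of 100 targets lowered by 1 and 70.0% of 100 lowered by 2 on the log2 scale were recovered, with 2 false calls.

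The globins and the gene lists were chosen with earlier results of these data known, and so was the order of outlier removal and background fit. Named genes are the globins, the 3 genes nearest to each, and up to 4 called members of a list, or the 2 largest where none passed; FTH1, TF, VWF, MYH7, ACTN3, PYGM, MSTN and the untested SLC4A1, HBZ, MYH1, MYH2, MYH4 and CA3 were added after their values were seen. Alternatives covered background, offset, signal source, normalisation, filter, outliers, probe choice, model and leaving out a horse. All arrays lie on 1 slide, so no batch term could be fitted.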

Additional observations from a re-analysis of the deposited data

Results flagged for a closer look

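Of 53 values examined over the 4 horses, 5 had 1 horse set apart from the rest by Dixon's criterion on the gap to the nearest other, which chance alone gives in about 1 of 20 groups. The HBB spot signal in the sarcoid channel was 91 in horse 1 and at most 79 in the others, and that spot is the only HBB sarcoid spot well above background. The MB spot signal in skin was 302 in horse 2 and at most 177 in the others. The normalised levels of both, 6.31 and 8.0 on the log2 scale, did not meet the criterion. The log2 ratio of HAMP, the iron hormone hepcidin, was -0.74 in horse 2 with the next at -0.16. That of HK2 (hexokinase 2) was -0.28 in horse 3 with the next at 0.02, and that of LOC100067649, the neighbour of HBA2 by ratio, was -2.28 in horse 3 with the next at -1.22.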

How the results depend on the processing

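The fall of HBA2 and of MB each passed under 13 of 15 alternative settings and that of HBB under 9, and no setting turned a sign. These settings are not 15 separate checks. Changes of filter, probe choice and model could not change the log2 ratio of a gene with 1 probe, so its sign was fixed there. The authors' value table repeated Agilent's processed signals, and keeping outlier spots nearly repeated normexp on all spots for the globins. With normexp on all spots and outliers left out afterwards the log2 ratios were -0.73 (HBA2), -0.56 (HBB) and -0.56 (MB), with 98 targets lower and 42 higher. With outlier spots kept they were -0.73, -0.56 and -0.56, with 147 lower and 94 higher. HBB did not pass with no background correction (-0.74, limma adjusted p = 0.0547), with median centring (-0.76, 0.0695), with no filter (-0.77, 0.0572) or with separate channels and no replicate block (-0.77, 0.144), and horse as replicate block changed no call. Over all settings the limma adjusted p ranged from 0.00273 to 0.239 for HBA2, 0.00269 to 0.35 for HBB and 0.00527 to 0.33 for MB. Targets called higher were 1795 with Agilent's processed signals, 1793 with the authors' value table and 544 with median centring, and HBA2 minus HBB was 0.65 with both of the former. With each horse left out HBA2 ranged from -1.43 to -1.18, HBB from -0.88 to -0.62, MB from -1.43 to -1.04, targets lower from 1030 to 1368 and targets higher from 350 to 755. The negative control background and its offset of 10 were chosen after seeing the data. Apart from the fitted background and the added constant given above, the cause of these changes was not tested. Signal over background limits HBB and MB in the sarcoids: at 76 to 91 scanner units they lie within the range of the negative control spots of the same arrays.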
